A study of Mus musculus with 10 samples.

Results

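The genes described here are 9 genes that act around gasdermin cleavage in pyroptosis, a lytic form of cell death. They are the caspases Casp1, Casp4, Casp6 and Casp8, the inflammasome parts Pycard and Nlrp3, the cytokines Il18 and Il1b, and Ninj1. They were chosen by gene symbol from the 55414 genes of the expression table. All 9 were in the table, 6 were above 0 in at least 1 sample and 3 (Casp1, Nlrp3 and Il1b) were listed at 0 in every sample. The comparison asks whether these genes differ in the cells in which the gasdermin transcripts Gsdmc2, Gsdmc3 and Gsdmc4 are lower.

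The 10 samples for RNA-seq were mpkCCD cells, an immortalized mouse cortical collecting duct line on a C57BL/6 background that keeps features of vasopressin-responsive principal cells. The 5 Camk2d-intact samples came from 3 lines, namely the untransfected parental line and 2 samples each of 2 clones (intact clone 1 and intact clone 2) that had been transfected with the CRISPR-Cas9 plasmid but kept an unmutated gene. The 5 Camk2d knockout (KO) samples were 1 sample each of 5 clones grown from sorted single cells after transfection with a guide for exon 8 or exon 9 of Camk2d, which encodes the calcium/calmodulin-dependent kinase CAMK2D. Intact and KO cells alike were grown on permeable membrane supports with 0.1 nM of the V2-receptor agonist dDAVP for 7 days, 4 in complete medium and 3 in serum-free medium, with dexamethasone throughout. No sample without dDAVP, without dexamethasone or with an inflammasome stimulus was analysed here. Each KO line is 1 clone, so a difference between clones and a difference between samples cannot be told apart there, and the labels do not say whether the paired samples of an intact clone were separate cultures.

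In pyroptosis a sensor such as NLRP3 recruits the adaptor ASC, the product of Pycard, which gathers and activates caspase-1. Caspase-1 cleaves gasdermin D, whose fragment forms pores in the plasma membrane, and it matures interleukin-1 beta and interleukin-18. Caspase-11, the product of mouse Casp4, cleaves gasdermin D after binding bacterial lipopolysaccharide in the cytosol. Caspase-8, the initiator of death receptor signalling, can cleave gasdermin C and gasdermin D, and NINJ1 ruptures the membrane late in lysis. Macrophages are the best known site of this machinery, whereas interleukin-18 is also made by kidney tubule epithelium.

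The values are the authors' TPM, transcript abundances scaled by gene length and summing to a fixed total per sample. TPM can therefore be compared between genes. Depth cannot be read from them, so it is unknown and no detection limit can be given for a gene listed at 0. As a check of the labels, Camk2d averaged 132 ± 6.97 TPM in the intact group and 24.7 ± 3.65 TPM in the KO group (SD, n = 5 each), and its log2 ratio was -2.39 (limma adjusted p = 1.2e-06). The 11 principal cell markers, among them Aqp2, were all above 0 in at least 1 sample and summed to 4511 to 6283 TPM in intact samples and 2080 to 4632 TPM in KO clones. Of 8 macrophage markers, Adgre1 and Tyrobp were listed at 0 throughout and Csf1r and Cd68 had a mean of at least 1 TPM, and their sum was 15.2 to 21.9 TPM in intact samples and 14.9 to 30.3 TPM in KO clones. The 7 intercalated cell markers summed to 232 to 326 and 141 to 381 TPM, carried by Car2 and Atp6v1b1, and Foxi1, Slc4a1, Slc26a4, Atp6v0d2 and Atp6v1g3 were at or under 0.32 TPM in every sample. Sums stayed at or under 0.610 TPM for T and B cell, fibroblast and endothelial markers. Aqp2 carried most of the principal cell sum, with a mean of 4318 TPM in intact samples and 2485 TPM in KO clones (log2 ratio -0.89, limma adjusted p = 0.565, unadjusted p = 0.00778, exact permutation p = 0.0159). The 9 other principal cell markers tested had log2 ratios from -1.17 (Aqp4) to 0.79 (Hsd11b2), 4 of them negative and 5 positive. By limma, 0 of the 9 were under 0.05, adjusted or unadjusted. The part of these markers in the results below was not tested.

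The sequences before the gene starts are shown first, because the 9 genes ranged from listed at 0 to rank 1388 of the table by mean TPM (Ninj1). All 9 matched the RefSeq promoter table (GRCm38.p6), and the 250 bases before each start were searched. The stretches printed here, 5′ to 3′ on the gene's strand, stop before the first base that GENCODE M21 assigns to the gene, and capitals mark CpG dinucleotides. Ninj1 (chr13:49187279-49187484, plus strand) and Casp6 (chr3:129901165-129901414, plus strand) are well expressed in these cells. Casp1 (chr9:5298267-5298516, plus strand) and Il1b (chr2:129371140-129371389, minus strand) were listed at 0, and Casp4 (chr9:5308599-5308827, plus strand) was mainly found in 1 clone.

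Ninj1: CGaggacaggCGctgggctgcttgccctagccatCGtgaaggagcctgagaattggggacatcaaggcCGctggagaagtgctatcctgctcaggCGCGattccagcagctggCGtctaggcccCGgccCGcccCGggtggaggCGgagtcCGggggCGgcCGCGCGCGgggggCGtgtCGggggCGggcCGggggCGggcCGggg
Casp6: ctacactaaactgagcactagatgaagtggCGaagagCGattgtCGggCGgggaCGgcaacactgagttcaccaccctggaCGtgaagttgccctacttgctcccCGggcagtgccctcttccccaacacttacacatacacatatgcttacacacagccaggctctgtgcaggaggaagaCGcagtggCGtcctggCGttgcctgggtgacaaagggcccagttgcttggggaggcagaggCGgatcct
Casp4: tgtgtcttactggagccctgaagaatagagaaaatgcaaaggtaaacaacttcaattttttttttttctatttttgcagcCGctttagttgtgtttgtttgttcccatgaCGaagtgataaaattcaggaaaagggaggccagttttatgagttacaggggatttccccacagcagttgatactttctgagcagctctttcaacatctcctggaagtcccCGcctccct
Casp1: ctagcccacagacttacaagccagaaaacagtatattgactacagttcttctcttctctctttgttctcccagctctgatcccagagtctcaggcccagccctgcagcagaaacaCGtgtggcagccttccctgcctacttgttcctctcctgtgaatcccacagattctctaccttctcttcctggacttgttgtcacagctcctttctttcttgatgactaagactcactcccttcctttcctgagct
Il1b: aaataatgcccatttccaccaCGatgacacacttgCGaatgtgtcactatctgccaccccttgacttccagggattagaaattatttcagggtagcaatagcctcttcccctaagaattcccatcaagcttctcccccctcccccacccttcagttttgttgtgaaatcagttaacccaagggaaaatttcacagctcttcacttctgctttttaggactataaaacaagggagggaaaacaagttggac

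Ninj1 had 31 CpG dinucleotides in its 250 bases, 23 of them in the 206 bases printed above. Casp6 had 11 and Casp8 had 5. The counts and ratios of each window use all 250 bases, also those that GENCODE assigns to the gene. Casp1 and Il18 had 1 each, Pycard and Il1b had 2, Casp4 had 3 in both of its windows, and the 2 windows of Nlrp3 had 3 and 4. Scaled for base composition, the observed over expected CpG ratio was 0.899 for Ninj1, higher than in 87.0% of the 20936 genes with a window. It was 0.526 for Casp8 and 0.516 for Casp6, near the median of 0.469 over all genes. The ratio was lower for the other 6 genes, from 0.0774 for Casp1 to 0.288 for Casp4, with 0.132 for Il18, 0.144 for Pycard and 0.174 for Il1b.

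Over all matched genes, the median ratio was 0.201 for the 6965 genes listed at 0 in every sample and 0.758 for the 7359 genes with a mean of at least 10 TPM. The 3 genes of the pathway with over 10 TPM (Ninj1, Casp8 and Casp6) had the 3 highest ratios of the 9, but Casp8 and Casp6 were below the lower quartile of their own class (0.592). Il18, at a mean of 4.60 TPM, had a ratio below the 0.633 median of the 1985 genes with 1 to 10 TPM. The Casp8 window (chr1:58802252-58802501) lies inside the gene as GENCODE annotates it, which begins at 58795374, so it describes an inner start. A window of Nlrp3 (chr11:59542436-59542685) also lies inside its gene, which begins at 59541568.

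The NF-kappaB consensus was searched on both strands, counting each position once. It had 3 matches in the Casp4 window, which are the overlapping GGGGATTTCC and GGGATTTCCC and the separate GGAAGTCCCC. One of the Nlrp3 windows had 1 match, GGGAACCCCC, and the windows of the other 7 genes had no match to these letters. Over all 32851 windows, 7.25% held at least 1 match. TATAAA, searched on both strands, was present in the windows of Il1b and Il18, against 12.4% of all windows. A match describes the letters only.

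**Figure D1:**
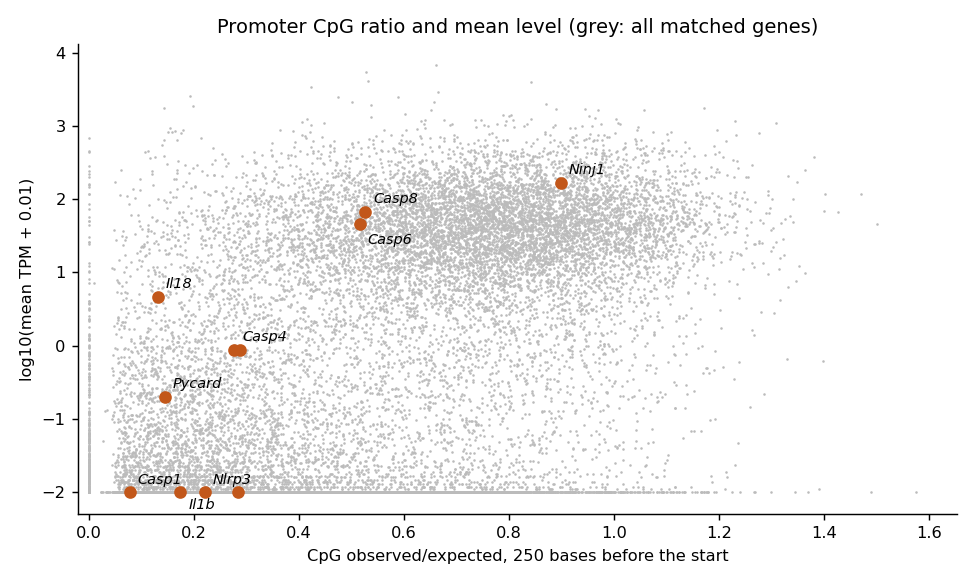
The horizontal axis is the observed over expected CpG ratio in the 250 bases before the RefSeq start, and the vertical axis is log10 of the mean TPM over 10 samples plus 0.01, so genes listed at 0 lie at the bottom. Grey points are the 20936 matched genes and coloured points the 9 pathway genes, with a point for each window of Casp4 and Nlrp3, and Ninj1 lies farthest right at 0.899.

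The inflammasome core was listed at 0 or at low values. Casp1 (ENSMUSG00000025888, chr9:5298517-5307265), Nlrp3 (ENSMUSG00000032691, chr11:59541568-59566956) and Il1b (ENSMUSG00000027398, chr2:129364570-129371139) were listed at 0 in all 10 samples, as were 29391 of the 55414 genes of the table. Positions are those of GRCm38 with GENCODE M21. Neither a fold nor a test can be given for them.

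Pycard (ENSMUSG00000030793, chr7:127989708-127993867), the adaptor, was 0.12 TPM in the parental line, 0.15 and 0.22 TPM in intact clone 1 and 0.05 and 0.37 TPM in intact clone 2. In KO 1 to KO 5 it was 0.08, 0.1, 0.27, 0.34 and 0.23 TPM. The groups overlapped, and the samples of intact clone 2 were the lowest and the highest of the 10. The means were 0.182 ± 0.122 TPM in intact samples and 0.204 ± 0.111 TPM in KO clones (SD, n = 5 each). In GENCODE, 88.3% of the 50-base windows of Pycard transcripts occur in no other gene and 11.5% also occur in the overlapping Gm45205, so part of its small value is uncertain.

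Gasdermin D, the substrate that this route would cut, was also low. Gsdmd, named after its values were seen, was 0.5 TPM in the parental line, 0.03 and 0 TPM in intact clone 1, 0.68 and 0.44 TPM in intact clone 2, and between 0.04 and 0.77 TPM in KO clones. Among 16 other sensors and receptors of the lists used here, 15 were in the table, 6 of these were listed at 0 in every sample (Nlrp1a, Nlrp1b, Nlrp6, Nlrp9b, Nlrp12 and Mefv) and Nod1, a receptor for bacterial cell wall fragments, was the 1 gene with a mean of at least 1 TPM. Nod1 was 1.01 to 1.29 TPM in intact samples and 0.58 to 1.83 TPM in KO clones, and Nod2, its relative, was 0.19 to 0.5 and 0.05 to 0.37 TPM. The highest value of any gene of this list in any sample was thus the 1.83 TPM of Nod1.

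Casp8, Casp6 and Ninj1 were well expressed in every sample, between 38.28 and 188.33 TPM. Ninj1 (ENSMUSG00000037966, chr13:49187485-49196244), the membrane rupture protein, was the most abundant of the 9 genes. It was 161.66 TPM in the parental line, 148.54 and 148.77 TPM in intact clone 1 and 176.94 and 172.57 TPM in intact clone 2. KO 1 to KO 5 had 175.17, 188.33, 164.76, 158.6 and 158.31 TPM. KO 2 was the highest sample and intact clone 1 the lowest line, and the groups overlapped over most of their range. The means were 162 ± 13.1 TPM in intact samples and 169 ± 12.8 TPM in KO clones (SD, n = 5 each).

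Casp8 (ENSMUSG00000026029, chr1:58795374-58847503) was 66.94 TPM in the parental line, 69.14 and 68.59 TPM in intact clone 1 and 68.62 and 65.69 TPM in intact clone 2. In KO 1 to KO 5 it was 59.02, 70.08, 65.31, 69.01 and 67.2 TPM. The intact samples lay close together, KO 1 and KO 3 were below all of them and KO 2 was above all of them. The means were 67.8 ± 1.44 and 66.1 ± 4.37 TPM (SD, n = 5 each). The coefficient of variation over the 10 samples was 4.76%, and 90.0% of 4177 genes of like level had a larger one.

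Casp6 (ENSMUSG00000027997, chr3:129901425-129914103), an executioner caspase, was 50.75 TPM in the parental line, 45.81 and 48.61 TPM in intact clone 1 and 53.35 and 44.7 TPM in intact clone 2. KO 1 to KO 5 had 45.59, 38.28, 47.82, 43.26 and 46.84 TPM. KO 2 and KO 4 were below every intact sample and the other KO clones were within the intact range. The means were 48.6 ± 3.54 TPM in intact samples and 44.4 ± 3.80 TPM in KO clones (SD, n = 5 each).

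Il18 (ENSMUSG00000039217, chr9:50554827-50581840) was the expressed cytokine, at 6.1 TPM in the parental line, 5.55 and 4.62 TPM in intact clone 1 and 4.38 and 4.26 TPM in intact clone 2. KO 1 to KO 5 had 4.43, 4.53, 2.24, 3.95 and 5.92 TPM. KO 3 was the lowest sample and KO 4 the next lowest, while KO 5 was near the parental line at the top of the range. The means were 4.98 ± 0.804 and 4.21 ± 1.33 TPM (SD, n = 5 each). In bulk RNA, fewer cells that express a gene and less of its RNA per cell cannot be told apart, for Il18 as for the other genes.

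Casp4 (ENSMUSG00000033538, chr9:5308828-5336783) had little RNA in 9 samples and more in 1 clone. It was 0.31 TPM in the parental line, 0.26 and 0.07 TPM in intact clone 1 and 0.72 and 0.29 TPM in intact clone 2. KO 1 to KO 5 had 0.27, 6.06, 0.15, 0 and 0.64 TPM. KO 2 was thus 8.42 times the next highest sample and held 74.8% of the Casp4 TPM summed over the 8 cell lines, and KO 4 was listed at 0. Without KO 2 the other KO clones lay within or below the intact range. Casp12, a caspase gene near Casp4, was named after its values were seen, and at 0.31 TPM it was also highest in KO 2, with 0 to 0.09 TPM elsewhere. Of the macrophage markers, Cd68 was 9.05 TPM in KO 2 and no higher than 5.54 TPM elsewhere, and Csf1r was 8.88 TPM in KO 2 and 9.77 to 25.73 TPM in the others. Their part in the Casp4 value was not tested. Genes with at least 1 TPM in a sample and at least 5 times the level of every other sample numbered 310 of 20000 (1.55%), and 54 of them were highest in KO 2, more than in any other sample (22 to 38). A gene high in both samples of an intact clone cannot meet this rule. The counts of those samples are therefore not like those of the parental line and the KO clones.

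**Figure D2:**
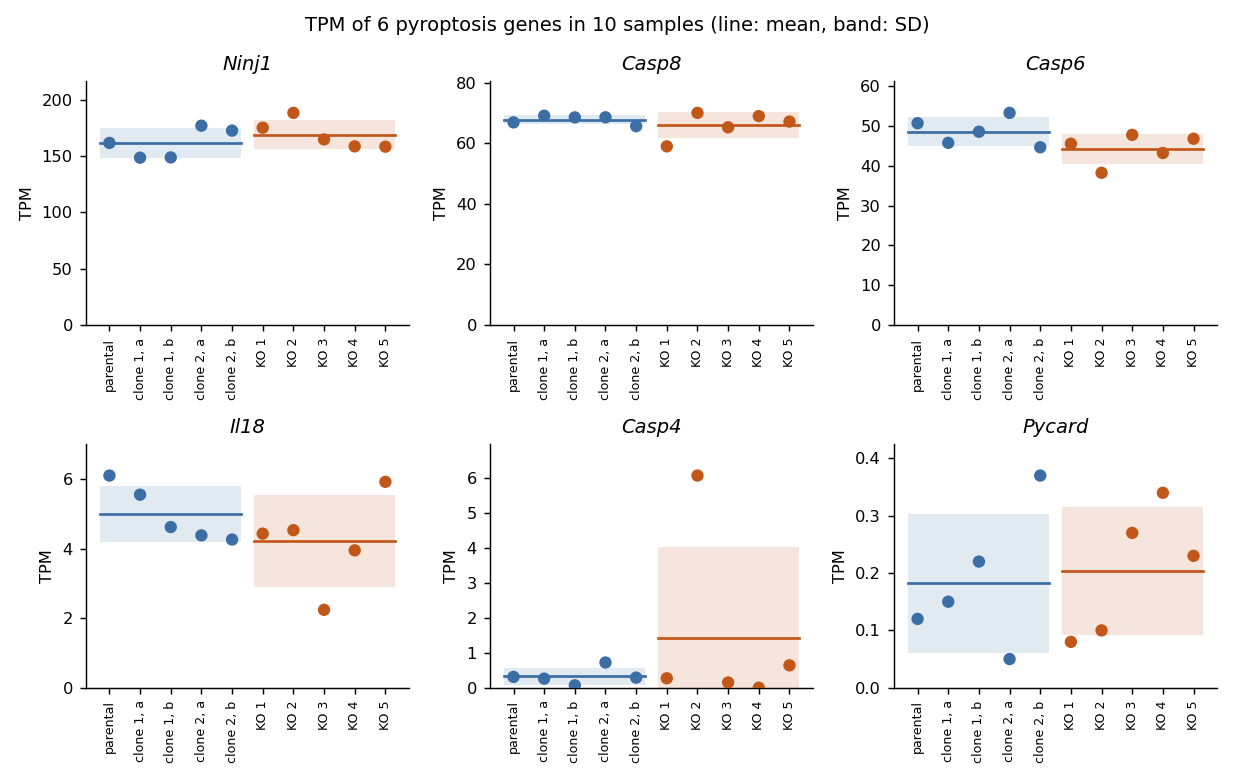
Each panel shows TPM (vertical axis, from 0) in the 10 samples for 1 gene, with intact samples in blue and KO clones in orange. Horizontal lines are group means and bands are 1 SD (n = 5 each, cut at 0 for Casp4), and the 6.06 TPM of Casp4 in KO 2 is the value that stands farthest from its group.

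The 4 most abundant genes kept the order Ninj1, Casp8, Casp6 and Il18 in every sample. The lowest Ninj1 value (148.54 TPM) was above the highest Casp8 value (70.08 TPM), and the ratio of Ninj1 to Casp8 ran from 2.15 to 2.97. The lowest Casp8 value (59.02 TPM) was above the highest Casp6 value (53.35 TPM), with a ratio of 1.29 to 1.83, and Casp6 was 7.91 to 21.3 times Il18. Neighbours in this order did not overlap over the 10 samples. Il18 and Casp4 overlapped through KO 2, in which Casp4 (6.06 TPM) was above Il18 (4.53 TPM), and Casp4 and Pycard overlapped in both groups.

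KO and intact samples were compared over the 20000 genes with the highest mean TPM, on log2(TPM + 1), with limma and Benjamini-Hochberg adjustment. Of all genes tested, 1 gene (0.00500%) had an adjusted p-value under 0.05, which was Camk2d. Without adjustment 6.99% had a p-value under 0.05, 4.53% higher in KO clones and 2.46% lower, and in 1.64% the groups did not overlap. The fit counts the paired samples of an intact clone as independent. With 1 value per cell line, 762 genes had an unadjusted limma p-value under 0.05, against 1398. Of the 6 pathway genes tested with limma, 0 had an adjusted p-value under 0.05, 0 had an unadjusted p-value under 0.05 and 0 had groups without overlap. Two-sided exact permutation over the arrangements of 5 against 5 samples can reach 0.00794 at the lowest and also counts paired samples as independent. By this permutation, 0 of the 6 pathway genes had a p-value under 0.05.

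Casp6 had the lowest p-value among them. Its log2(KO/intact) was -0.13 with a standard error of 0.07 and a 95% interval of -0.29 to 0.02 (limma adjusted p = 0.759, exact permutation p = 0.111). On this scale the interval spans 0.819 to 1.02 times the intact level, and the ratio was -0.08 without KO 2.

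For Ninj1 the log2 ratio was 0.06 with a standard error of 0.07 and an interval of -0.08 to 0.21 (limma adjusted p = 0.845, exact permutation p = 0.421). For Casp8 it was -0.04 with a standard error of 0.05 and an interval of -0.15 to 0.07 (limma adjusted p = 0.884, exact permutation p = 0.532). These intervals leave room for 0.943 to 1.16 times the intact level for Ninj1 and 0.904 to 1.05 times for Casp8. The Ninj1 ratio was 0.02 without KO 2. The Casp8 ratio was 0.0019 without KO 1, so its sign rests on that clone.

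The intervals were wider for the genes with few TPM. Il18 had a log2 ratio of -0.23 with an interval of -0.65 to 0.19 (limma adjusted p = 0.819, exact permutation p = 0.302), or 0.639 to 1.14 times the intact level, and the ratio was -0.07 without KO 3. Casp4 had a log2 ratio of 0.42 with an interval of -0.60 to 1.44 (limma adjusted p = 0.854, exact permutation p = 0.675). That ratio was -0.08 without KO 2 (limma adjusted p = 0.933). Pycard had a log2 ratio of 0.03 with an interval of -0.17 to 0.22 (limma adjusted p = 0.964, exact permutation p = 0.754), and its sign turned when the first sample of intact clone 2 or KO 4 was left out (-0.01 each). Because 1 is added to TPM, ratios of genes with few TPM are understated. With 0.1 added instead, the log2 ratio was -0.29 for Il18, 0.48 for Casp4 and 0.13 for Pycard. The range of levels given for Il18 is likewise of TPM + 1.

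**Figure D3:**
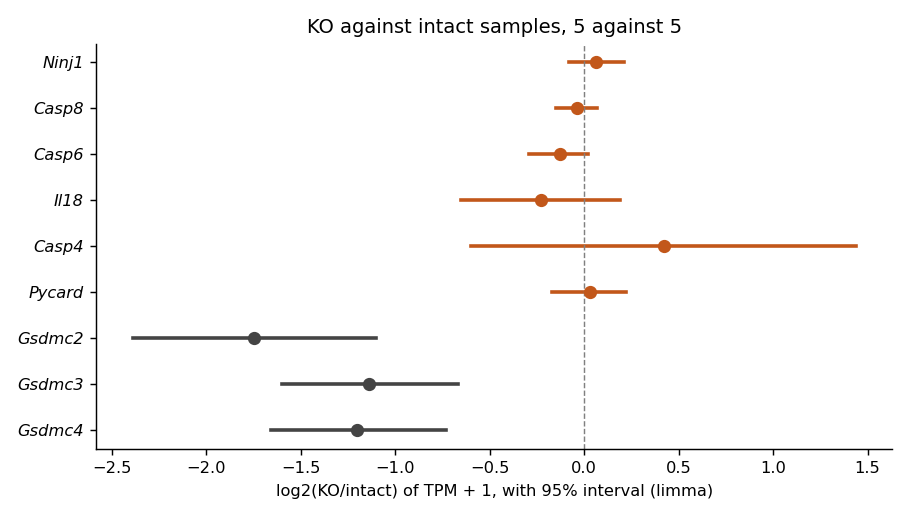
Points are log2 ratios of KO to intact samples (log2(TPM + 1) scale) and bars are limma's 95% intervals, for the 6 pathway genes tested (orange) and for Gsdmc2, Gsdmc3 and Gsdmc4 (grey). The orange intervals include 0, from the narrow one of Casp8 (-0.15 to 0.07) to the wide one of Casp4 (-0.60 to 1.44), and the grey intervals lie below 0.

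The gasdermin C transcripts are set beside these values sample by sample. Gsdmc2 was 21.75 TPM in the parental line, 32.21 and 33.11 TPM in intact clone 1, 18.96 and 19.05 TPM in intact clone 2, and 8.51, 3.25, 8.16, 4.37 and 11.18 TPM in KO 1 to KO 5. Gsdmc2, Gsdmc3 and Gsdmc4 were lower in every KO clone than in every intact sample, with log2 ratios of -1.75, -1.14 and -1.20 (limma adjusted p = 0.245, 0.282 and 0.245). None of the 3 passed the adjusted threshold, and limma's adjusted p was 0.998 for each with 1 value per cell line and 0.916 for each with a random effect of line. The paper, which used edgeR on expected counts, reported these 3 genes as significantly decreased. They were chosen for being lower in these samples, so their values are a description. They are close paralogs with 48.7%, 54.0% and 61.0% of their 50-base windows to themselves, so their sum is used below.

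In KO 1 to KO 5 the summed gasdermin C level was 30.3%, 19.1%, 48.3%, 25.3% and 45.1% of the intact mean. Casp8 in the same clones was 87.1%, 103%, 96.3%, 102% and 99.1% of its intact mean, and Ninj1 was 108%, 116%, 102%, 98.1% and 97.9%. Casp6 was 93.7%, 78.7%, 98.3%, 88.9% and 96.3%. In KO 2, the clone with the lowest gasdermin C level, Casp6 was at its lowest and Casp8, Ninj1 and Casp4 were at their highest. Il18 was 88.9%, 90.9%, 45.0%, 79.3% and 119%, and its lowest value was in KO 3, the clone with the highest gasdermin C level.

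Casp8 was 1.24 to 1.91 times the summed gasdermin C level in intact samples and 3.04 to 8.24 times in KO clones. The mean ratio was 1.57 ± 0.295 in intact samples and 5.03 ± 2.17 in KO clones (SD, n = 5 each). The denominator was chosen because it is lower in KO clones, so this separation restates that and is no result about Casp8. The numerator stayed within 59.02 to 70.08 TPM, while the sum ran from 35.9 to 55.3 TPM in intact samples and from 8.50 to 21.5 TPM in KO clones.

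**Figure D4:**
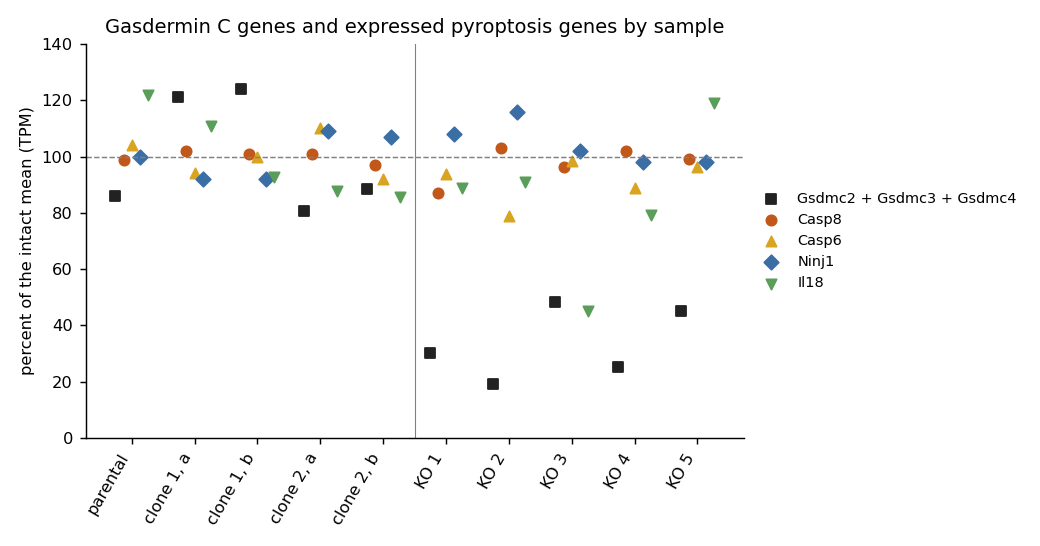
The vertical axis is the level in percent of the mean of the 5 intact samples, for each of the 10 samples along the horizontal axis, with a vertical line between intact samples and KO clones and small sideways shifts so that points do not hide each other. Black squares (Gsdmc2, Gsdmc3 and Gsdmc4 summed) lie at 19.1% to 48.3% in KO clones, where Casp8, Casp6 and Ninj1 lie at 78.7% to 116% and Il18 at 45.0% to 119%.

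The spread between clones is given beside these ratios. On the log2(TPM + 1) scale, the 5 KO clones spanned 0.25 for Ninj1, 0.24 for Casp8 and 0.31 for Casp6, and the 3 intact lines spanned 0.23, 0.04 and 0.10. The span among KO clones was 1.09 for Il18 and 2.82 for Casp4, against 0.42 and 0.36 among intact lines. An intact clone enters as the mean of its 2 samples, and a range over 5 values tends to be wider than over 3. These spans therefore do not show whether KO clones vary more than intact lines. The 2 samples of an intact clone differed by 0.00 and 0.04 for Ninj1 and by 0.01 and 0.06 for Casp8, but by 0.08 and 0.25 for Casp6, so that its difference within intact clone 2 was larger than the difference between the group means.

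The other genes of the pathway were read from 8 lists holding 84 genes apart from the gasdermins and the genes above, of which 83 were in the table, 11 were listed at 0 and 65 were tested. With limma, 0 of the 65 had an adjusted p-value under 0.05, and at an unadjusted p-value under 0.05 there were 1 higher and 2 lower. The median log2 ratio was 0.01, against 0.02 over all genes tested. Over all genes tested the shares were 4.53% higher and 2.46% lower, and these counts are near that background.

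Among the other caspases, 5 of 6 were tested and 0 had an unadjusted p-value under 0.05. Casp2 was 108.49 to 121.72 TPM in intact samples and 101.07 to 129.03 TPM in KO clones. Gsdme, a gasdermin that apoptotic caspases can cut and that was also named after its values were seen, was 7.0 to 9.28 TPM in intact samples and 7.9 to 12.67 TPM in KO clones, highest in KO 2 (log2 ratio 0.23, limma adjusted p = 0.759). The groups overlapped for both genes.

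The partners of caspase-8 were present as well. All 13 genes of the caspase-8 and necroptosis list were tested, 10 had a mean of at least 1 TPM and 0 had an unadjusted p-value under 0.05, with a median log2 ratio of 0.01 (range -0.08 to 0.20). Tradd, an adaptor of the TNF receptor, was 67.12 to 82.79 TPM in intact samples and 52.48 to 85.24 TPM in KO clones, and the receptor Tnfrsf1a was 47.08 to 53.27 and 48.78 to 55.9 TPM. Both ranges overlapped between the groups.

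Of 17 genes of the interleukin-1 family, with ligands, receptors and inhibitors, 4 were listed at 0 (Il36a, Il36b, Il36g and Il1r2), 12 were tested and 0 had an unadjusted p-value under 0.05. Il18r1 and Il18rap, which form the receptor for interleukin-18 and were named after their values were seen, were 30.57 to 36.52 and 0.31 to 0.63 TPM in intact samples and 30.67 to 37.74 and 0.04 to 1.11 TPM in KO clones. Il1r1, the receptor for interleukin-1, was 38.23 to 45.24 TPM in intact samples and 33.7 to 45.91 TPM in KO clones, and the kinase Irak1 below it was 73.1 to 79.03 and 74.47 to 94.94 TPM.

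Of 12 inflammasome regulators, 11 were tested. Txnip, which binds NLRP3 under oxidative stress, was the most abundant at 558.28 to 698.98 TPM in intact samples and 359.84 to 814.76 TPM in KO clones. Nek7, the kinase that NLRP3 needs for assembly, was 76.79 to 89.39 and 75.39 to 89.31 TPM, although Nlrp3 was listed at 0. Both overlapped between the groups.

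The 2 regulators with an unadjusted p-value under 0.05 had ratios of opposite sign. Dpp9, a protease that restrains NLRP1 and CARD8, was 48.92 to 52.26 TPM in intact samples and 51.89 to 57.41 TPM in KO clones (log2 ratio 0.12, limma adjusted p = 0.571). Gbp2, an interferon-induced GTPase that coats cytosolic bacteria, was 1.85 to 3.92 TPM in intact samples and 1.56 to 2.36 TPM in KO clones (log2 ratio -0.41, limma adjusted p = 0.646). In each the groups overlapped, and neither passed after adjustment.

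The genes listed for ESCRT-III, the machinery that repairs gasdermin pores, had mean levels from 9.55 TPM (Chmp4c) to 233 TPM (Chmp1a), with 10 of 10 genes tested and a median log2 ratio of -0.02. Chmp1a was 223.73 to 242.99 TPM in intact samples and 195.51 to 253.4 TPM in KO clones. Chmp2a was the gene of this list with an unadjusted p-value under 0.05, at 226.46 to 245.33 TPM in intact samples and 210.72 to 225.69 TPM in KO clones (log2 ratio -0.11, limma adjusted p = 0.610). Its groups did not overlap, by 226.46 against 225.69 TPM.

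The list of regulators upstream of gasdermin C genes held 2 routes known from intestinal epithelium, the interleukin-4 and interleukin-13 receptor route and the TGF-beta route. It also held Nfatc1, named here because it is of neither route. Of the 9 genes, 8 were tested, and 0 had an unadjusted limma p-value under 0.05. Their median log2 ratio was 0.09 (range 0.04 to 0.14). Stat6, the transcription factor of the first route, was 140.97 to 159.99 TPM in intact samples and 143.89 to 171.04 TPM in KO clones, and Smad4, of the second, was 96.07 to 117.06 and 106.14 to 121.92 TPM. Ninj2, the paralog of Ninj1, was 0.17 to 0.94 TPM in intact samples and 0.36 to 1.42 TPM in KO clones.

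**Figure D5:**
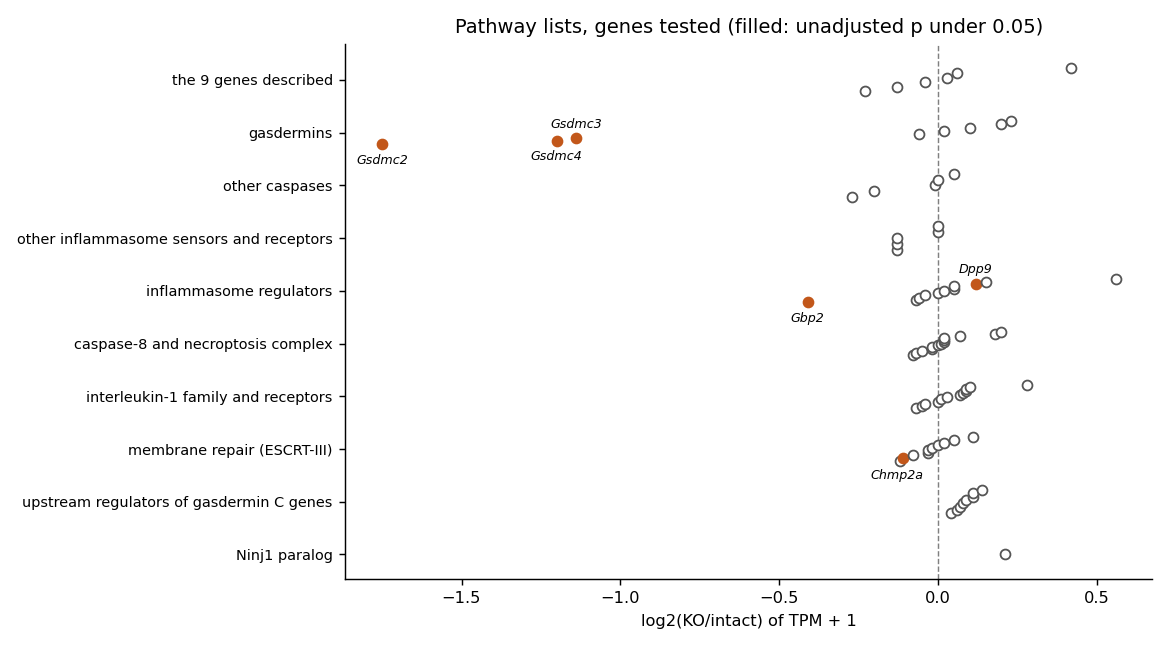
Each point is the log2(KO/intact) of a tested gene (horizontal axis, log2(TPM + 1) scale), by list, with small vertical shifts within a list. Filled points have an unadjusted limma p-value under 0.05, and away from Gsdmc2, Gsdmc3 and Gsdmc4 these are Gbp2 at -0.41, Dpp9 at 0.12 and Chmp2a at -0.11.

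The genes most like Casp8, Casp6 and Ninj1 in pattern were found by Pearson's r over the 8 cell lines, among 13046 genes with a mean of at least 1 TPM. These are the 3 pathway genes with a mean above 5 TPM, and r over lines is given as a description. For Casp8 they were Fgd1 (r = 0.985), Dpysl2 (0.985) and Ckap2 (0.979). For Casp6 they were Ift80 (0.983), Ndufv3 (0.980) and Gm37933 (0.977), and for Ninj1 they were Gm6598 (0.979), Scarb2 (0.975) and Stx18 (0.974). With 8 lines and this many genes, high values are common, and 150, 42 and 101 genes reached 0.9 for Casp8, Casp6 and Ninj1.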

How the data were processed

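RNA-seq was analysed in 10 samples of mpkCCD cells, 5 Camk2d-intact (3 lines) and 5 KO clones, grouped by the genotype in the labels. The authors amplified cDNA with a full-length kit, read 50 bases from both fragment ends, and used STAR and RSEM. The authors deposited TPM by Ensembl gene, rounded to 2 decimals, and 0 columns of per-sample values were left unused. The authors compared groups with edgeR on expected counts. Those were not used here, so TPM were tested on a log scale. The depth per sample is unknown from TPM, and no interval for counting error is given. Replicate p-values measure the spread between these samples, which may in part be technical in the paired intact samples. Within a pair, 0.327% and 0.241% of genes at or above 1 TPM were identical, so neither column is a copy of the other. That share cannot show whether the paired samples are independent, though the main fit counts each as a sample. In the alternative with a random effect of cell line, the consensus correlation within a line was 0.603.

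The 20000 genes of highest mean TPM were transformed to log2(TPM + 1) and tested with limma 3.58.1 (intensity trend) in R 4.3.3, 5 samples against 5, with Benjamini-Hochberg adjustment over all of them and a threshold of 0.05. A two-sided exact permutation test was added for named genes. The limma step was first tested on simulated data. Tables and plots were made with pandas 2.3.3, matplotlib 3.10.9 and numpy 2.4.6 (Python 3.11.15).

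The 9 genes and the gene lists were chosen with earlier results of these data known. The text names the 9 genes, Camk2d, Gsdmc2, Gsdmc3 and Gsdmc4, the 2 genes of highest mean TPM in each list, up to 4 per list with an unadjusted p-value under 0.05 or without overlap, and the 3 genes most like each member above 5 TPM. Gsdmd, Gsdme and a few others marked in the text were named outside this rule. A gene that this rule takes from a list is not reported here. The alternatives were a pseudocount of 0.5 or 0.1, no filter or a mean of at least 1 TPM, rescaling by median ratios, quantile normalization, limma with no trend, limma with robust moderation, a single value for each cell line, a random effect of cell line (statmod 1.5.0) and leaving out each sample. Positions and shared 50-base windows come from GENCODE M21 on GRCm38 and promoter windows from RefSeq on GRCm38.p6. The authors' annotation was a later one, and their files gave no coordinates used here. The CpG ratio is the number of CpG in the window times its length, over the product of its C and G counts. The proteomic data were not used here.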

Additional observations from a re-analysis of the deposited data

Results flagged for a closer look

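Casp4 in the KO clones had 1 sample far from the others. KO 2 was 6.06 TPM and the next highest KO clone, KO 5, was 0.64 TPM, so the gap was 0.894 of the whole range of the 5 clones, above Dixon's critical value of 0.71 for 5 samples. The 9 genes, the gasdermin C genes and the genes named from the lists were looked at in this way, 29 genes and 52 groups in all, and chance gives about 1 flag in 20 groups. This was the single flag. The log2 ratio of Casp4 was 0.42 with KO 2 and -0.08 without it, and the reason for the value of KO 2 was not tested.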

How the results depend on the processing

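Of the 6 genes tested with limma, 0 had an adjusted p-value under 0.05 and 0 had groups without overlap under each alternative that gave a value, and the lowest adjusted p-value was 0.652, for Casp6. No paired analysis was possible because the intact samples and KO clones share no replicate numbers that pair them. Over all genes, the count past the adjusted threshold was 1, became 2 with a pseudocount of 0.1, and ran from 1 to 2 when 1 sample was left out (2 without the parental line and 2 without KO 2), and the cause was not tested. At an unadjusted p-value under 0.05 the count was 1398, against 762 with 1 value per cell line and 749 with a random effect of cell line. Among the other lists it was 3, and 2 with 1 value per cell line. When 1 sample was left out, the log2 ratio ran from -0.08 (without KO 2) to 0.63 for Casp4, from -0.06 to 0.0019 (without KO 1) for Casp8, and from -0.01 (without the first sample of intact clone 2, and without KO 4) to 0.08 for Pycard. It ran from -0.16 to -0.08 (without KO 2) for Casp6, from -0.34 to -0.07 (without KO 3) for Il18 and from 0.02 (without KO 2) to 0.10 for Ninj1, with the sign kept. Under the other alternatives the 6 ratios kept their sign, except that Casp4 and Pycard gave no value with a mean of at least 1 TPM. The unknown depth limits what can be said of genes under 1 TPM.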
